A study of Mus musculus with 20 samples.

Results

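Cytosolic ribosomal proteins are the protein part of the ribosome that translates nuclear mRNAs. The genes described here are the protein-coding genes of each table whose symbol has the form of an RPL, RPS, RPLP or RPSA name, without the RPS6K kinases. The human table held 84 such genes among 60607, 52 of the large (60S) and 32 of the small (40S) subunit. The mouse table held 82 among 55335, 51 large and 31 small. The name rule leaves out FAU and RACK1, which are also ribosomal components, and Rps3a1 and RPL36AL, whose symbols have another form.

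The study asked whether a single post-transcriptional regulator acts alike in human and mouse liver cells. HuR, encoded by ELAVL1, is an RNA-binding protein that attaches to AU-rich and U-rich stretches of mRNAs and alters their stability and translation. It was knocked down with an adenovirus that carries a short hairpin RNA, a human sequence in humanized mice and a mouse sequence in WT mice, and the control mice received a LacZ virus. The humanized mice were TK-NOG animals, immune-deficient NOG mice with a thymidine kinase transgene of herpes simplex virus driven by the mouse albumin promoter. Ganciclovir at 8 to 9 weeks of age removed hepatocytes that carried the transgene, and primary human hepatocytes were placed in the spleen afterwards. Animals with more than 0.5 mg/ml of human albumin in serum 8 to 12 weeks later were used. All 8 humanized mice shared this host, and their livers still contained mouse cells whose RNA is absent from the human table. The WT mice were male C57BL/6. The dose was 2000000000 pfu in every mouse. Livers were collected 7 days later, once the mice had fasted for 4 h, from 4 HuR knockdown and 4 LacZ humanized mice and from 6 and 6 WT mice. Host, hairpin, read length and species all differ between the humanized and WT experiments, so their parts in any difference cannot be told apart. The labels number the libraries within each group, and the paper's numbers of mice per group equal the numbers of libraries. No donor for the human hepatocytes is named here.

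A ribosome needs nearly equal numbers of each protein, and the genes behind them are among the most highly transcribed of a cell. In mammals their mRNAs typically start with a cytosine followed by an unbroken run of pyrimidines, the 5′ terminal oligopyrimidine (TOP) motif, through which mTORC1 and the binding protein LARP1 control their translation and stability together. Several members have a near copy, such as RPL22 and RPL22L1, that can take the same place in the particle. Processed pseudogenes of this family are numerous, and reads that match more than 1 copy may be lost or split in counting, so each level is that of the reads the authors could assign.

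Values in TPM, a transcript's share per length scaled to a fixed total, sum to 1000000 in every library, on human genes alone for the humanized mice, and the tables were normalised apart. Reads worked out from the steps between TPM values came to 2670469 to 20302454 per humanized library and to 12960373 to 44668272 per WT library, apart from WT LacZ 2 with 1423985. Between 10824 and 358713 reads per library fell on ribosomal protein genes. Mitochondrial ribosomal RNA took 49.11% of TPM in humanized HuR KD 4 and 49.07% in humanized LacZ 2, and 27.16% to 36.05% in the other humanized livers. In every WT library it was listed at 0%. Nuclear protein-coding genes took 75.55% to 77.56% of TPM in WT livers and 26.67% to 35.61% in humanized livers. Shares of TPM are therefore not compared between the sets. Human hepatocyte markers summed to 38906 TPM or more in every humanized liver, and the human T and NK cell markers to at most 0.07 TPM. Bulk RNA cannot tell fewer cells of a type from less RNA per cell.

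The knockdown was seen in both sets. ELAVL1 stood at 4.05, 2.37, 3.54 and 3.90 TPM in the 4 humanized HuR KD livers and at 5.76, 4.77, 6.17 and 5.99 TPM in the 4 LacZ livers. The groups did not overlap, and the mean was 61.0% of the LacZ mean (exact permutation p = 0.0286, the smallest possible here). Elavl1, on the minus strand of mouse chromosome 8 from 4285382 to 4325413 (GRCm38), ran from 3.72 to 5.62 TPM with HuR knockdown and from 8.58 to 10.7 TPM with LacZ. Its mean was 51.7% of the LacZ mean (exact permutation p = 0.00216, again the smallest possible).

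Human ribosomal protein transcripts were lower after HuR knockdown. Of the 84 genes, 76 had a mean of at least 1 TPM and were tested with limma on log2(TPM + 1), and 73 of these had a log2 fold change below 0. At the unadjusted threshold of p under 0.05, 32 fell and 0 rose, against 7.87% of all 12738 human genes that fell and 3.6% that rose. After Benjamini-Hochberg adjustment over all genes 0 of the 76 passed, as did 0.212% of all genes, so no single human gene of the family is called at that level. In 27 genes every HuR KD liver lay below every LacZ liver, which held for 5.03% of all genes tested. The median log2 fold change of the 76 genes was -0.30, beside -0.05 for all genes.

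The livers did not contribute equally. Ribosomal protein genes made up 0.476%, 0.475%, 0.592% and 0.579% of TPM in the 4 HuR KD livers and 0.607%, 0.675%, 0.656% and 0.683% in the LacZ livers. The groups did not overlap, but HuR KD 3 and HuR KD 4 came close to LacZ 1. Measured against the LacZ mean, the median gene stood at -0.43, -0.47, -0.13 and -0.16 on the log2 scale in the HuR KD livers, while LacZ 1 stood at -0.10. Thus HuR KD 1 and 2 were far lower than the other knockdown livers. They were also 2 of the 3 shallowest humanized libraries, with 2670469 and 3171015 reads. LacZ 4 had 3169425 reads and the highest share. Leaving out HuR KD 1 left 17 genes that fell, leaving out HuR KD 2 left 15, and leaving out LacZ 2 left 21. As a share of TPM on nuclear protein-coding genes alone, the family took 1.62% to 2.11% in HuR KD livers and 1.92% to 2.53% in LacZ livers, so the groups overlapped on that scale, where 16 genes fell and 0 rose. With HuR KD 4 and LacZ 2 both left out, a choice made after seeing the data, 34 genes fell. The counts over all genes in these refits are not given here, so no share stands beside them. The part that the number of reads or mitochondrial ribosomal RNA plays was not tested.

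**Figure D1:**
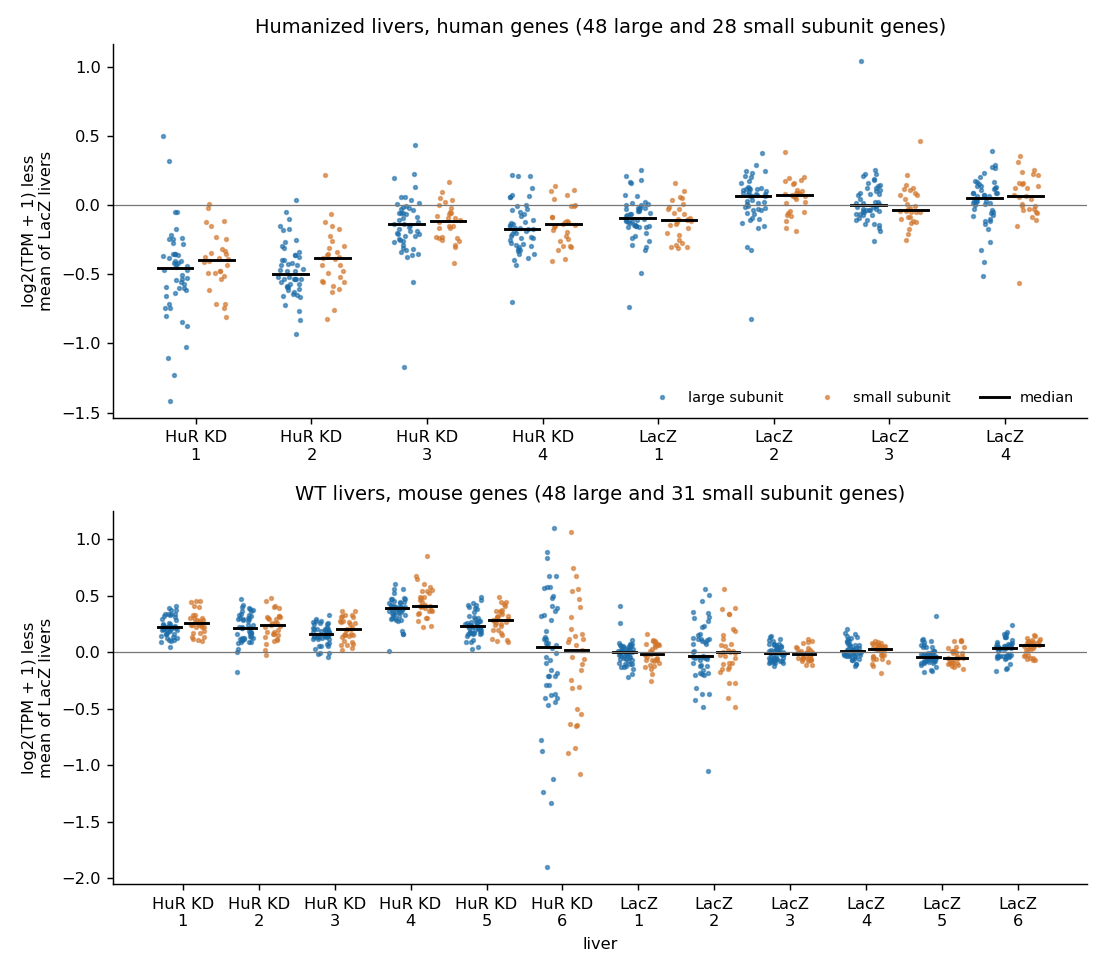
Level of each ribosomal protein gene tested, as log2(TPM + 1) less the mean of the LacZ livers, in every humanized liver (upper) and WT liver (lower), with 1 point per gene and the median of each subunit as a black bar. HuR KD 1 and 2 lie lowest among the humanized livers, the medians of WT HuR KD 1 to 5 lie between 0.16 and 0.41, and the points of WT HuR KD 6 and, less so, LacZ 2 are spread far more widely than those of other livers.

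Both human subunits moved alike. In the large subunit 21 of 48 genes tested fell, with a median log2 fold change of -0.31, and in the small subunit 11 of 28 fell, with a median of -0.28. The lower and upper quartiles were -0.41 and -0.23 for the large and -0.36 and -0.18 for the small subunit, so the distributions largely overlapped. The medians differed by -0.02, and this difference was given no test.

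RPL26, a large subunit protein beside the exit of the peptide tunnel, had the smallest p of the human genes. It was at 28.2, 37.0, 41.7 and 45.6 TPM in the HuR KD livers and at 59.2, 59.2, 54.9 and 75.8 TPM in the LacZ livers. All knockdown livers were below all control livers, and the mean fell to 61.2% of LacZ (log2 fold change -0.70 ± 0.18 SE, unadjusted p = 0.003, adjusted p = 0.153). RPL32, a structural protein of the 60S particle, had 52.8, 56.2, 68.6 and 68.1 TPM with knockdown and 84.7, 83.4, 88.3 and 92.8 TPM with LacZ, again without overlap (-0.51 ± 0.13, unadjusted p = 0.00376). RPL9, which sits near the base of the stalk, had 35.1, 33.3, 42.0 and 41.8 TPM against 47.8, 52.3, 57.3 and 53 TPM (-0.46 ± 0.13, unadjusted p = 0.00654). The means of RPL32 and RPL9 were 70.4% and 72.4% of their LacZ means, and the lowest liver of all 3 genes was HuR KD 1 or 2.

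RPL5 and RPL11 travel with 5S ribosomal RNA and, when not built into ribosomes, can bind MDM2 and release p53. RPL5 was at 63.5, 59.7, 77.2 and 69.0 TPM with HuR knockdown and at 98.5, 80.5, 77.3 and 98.9 TPM with LacZ (-0.39 ± 0.14, unadjusted p = 0.0229). RPL11 was at 93.8, 95.1, 123 and 124 TPM and at 118, 155, 135 and 163 TPM (-0.39 ± 0.16, unadjusted p = 0.0379). RPL5 did not overlap, while for RPL11 HuR KD 3 and 4 were above LacZ 1. RPL11 no longer passed without HuR KD 1 (unadjusted p = 0.0962), HuR KD 2 (0.0919), LacZ 2 (0.0767), LacZ 3 (0.0534) or LacZ 4 (0.089), nor without the trend (0.0525) or with protein-coding scaling (0.0945). Of 9 human p53 response genes tested, CDKN1A, a cell cycle inhibitor, rose (26.5 TPM with LacZ, 44.9 TPM with knockdown, unadjusted p = 0.032), CCNG1 fell (61.5 and 46.1 TPM, unadjusted p = 0.044) and 7 did not pass. Of all human genes 3.6% rose and 7.87% fell, and 0 of the 9 passed after adjustment.

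The stalk recruits elongation factors to the large subunit through RPLP0, RPLP1 and RPLP2, with RPL12 at its base. RPL12 was at 94.4, 81.2, 113 and 119 TPM in HuR KD livers and at 131, 143, 154 and 154 TPM in LacZ livers, without overlap (-0.52 ± 0.15, unadjusted p = 0.00727). RPLP0 had means of 175 ± 20.4 and 206 ± 7.38 TPM (SD), RPLP1 of 56.3 ± 4.42 and 60.2 ± 9.32 TPM, and RPLP2 of 84.1 ± 20.2 and 108 ± 17.7 TPM, and these 3 did not pass the unadjusted threshold. RPLP0 passed without HuR KD 3 (unadjusted p = 0.0299), and RPLP2 without HuR KD 3 (0.0491) or without LacZ 4 (0.0482). The changes of the 4 stalk genes were not tested against each other.

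Among small subunit genes the smallest p belonged to RPS4X, an X-linked gene whose product lies near the mRNA entry. Its levels were 72.0, 57.0, 86.1 and 76.6 TPM with HuR knockdown and 106, 90.5, 93.7 and 119 TPM with LacZ (-0.49 ± 0.16, unadjusted p = 0.0134). RPS3A (-0.37 ± 0.13, unadjusted p = 0.0189) also had every knockdown liver below every control liver. RPS15, which reaches towards the decoding centre, had means of 35.7 ± 5.88 and 49.3 ± 7.25 TPM (unadjusted p = 0.0206), but HuR KD 4 at 43.1 TPM was above LacZ 1 at 40.2 TPM, and the unadjusted p was 0.0565 without HuR KD 1, 0.0526 without LacZ 4 and 0.0636 with protein-coding scaling. RPS6, the protein phosphorylated by the S6 kinases downstream of mTORC1, fell from 183 ± 14.8 to 141 ± 17.7 TPM (unadjusted p = 0.0206, and 0.0507 without HuR KD 2).

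The most abundant human transcripts per length were not those that fell most. In LacZ livers RPS12 averaged 434 TPM, RPL19 309 TPM, RPL13A 286 TPM and RPS27 245 TPM. With HuR knockdown their means were 82.9%, 90.4%, 83.6% and 90.9% of those levels, and none of them passed the unadjusted threshold. RPL13A came closest, with every knockdown liver below every control liver (unadjusted p = 0.0558). It passed without HuR KD 3 (0.0406), without the filter (0.0362) and with a pseudocount of 0.1 (0.0488). RPSA, which also has a second life as a laminin receptor precursor, averaged 56.7 ± 6.59 and 66.3 ± 6.85 TPM and did not pass either. The 3 genes above their LacZ mean were RPL39L (log2 fold change 0.22 ± 0.37), RPS28 (0.08 ± 0.15) and RPL26L1 (0.06 ± 0.14), and none of them passed.

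The other 8 human genes were not tested because their mean was below 1 TPM. RPS25 and RPL3L were listed at 0 in every liver, and RPS18, RPL7A, RPS9, RPL36A and RPL10L stayed below a mean of 1 TPM. In the mouse table Rps25, Rps18, Rpl7a and Rps9 averaged 110, 158, 66.2 and 198 TPM in LacZ livers. RPS25, RPS18, RPL7A and RPS9 are parts of every ribosome, so their human entries are given as listed and are not read as expression levels.

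In WT mice the same family was higher after HuR knockdown. Of 82 genes, 79 were tested and 74 had a log2 fold change above 0. With limma 44 rose and 0 fell at the unadjusted threshold, against 9.09% of all 15090 mouse genes that rose and 6.94% that fell. After adjustment over all genes 10 of the 79 rose, beside 0.888% of all genes called in either direction. In 18 genes every HuR KD liver lay above every LacZ liver, which held for 1.25% of all genes. The median log2 fold change was 0.21, beside 0.03 for all genes. The large subunit had 26 of 48 genes raised and a median of 0.19, and the small subunit 18 of 31 and 0.23, with quartiles of 0.14 and 0.29 and of 0.16 and 0.28.

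The share of TPM on the family was 1.23% to 1.45% in WT HuR KD livers and 1.06% to 1.19% in LacZ livers, without overlap. The median gene lay 0.23, 0.22, 0.17, 0.40, 0.25 and 0.04 above the LacZ mean on the log2 scale in HuR KD 1 to 6, and between -0.04 and 0.04 in the LacZ livers. HuR KD 6 therefore lay inside the control range, with 41 genes above and 38 below the LacZ mean, while in HuR KD 1, 4 and 5 all 79 genes were above it. HuR KD 6 was the shallowest WT knockdown library with 12960373 reads. Without it 66 genes rose and 32 passed after adjustment. After adjustment 3 genes passed without HuR KD 1, 2 without any one of HuR KD 2, 4 or 5 or LacZ 1, 3, 4 or 6, and 7 to 12 without any one of HuR KD 3, LacZ 2 or LacZ 5. The number of genes of the family that fell was 0 in each of these fits. Over all mouse genes 30 to 372 passed after adjustment with 1 liver left out, beside 134 with every liver. The unadjusted counts over all genes in these fits are not given here.

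**Figure D2:**
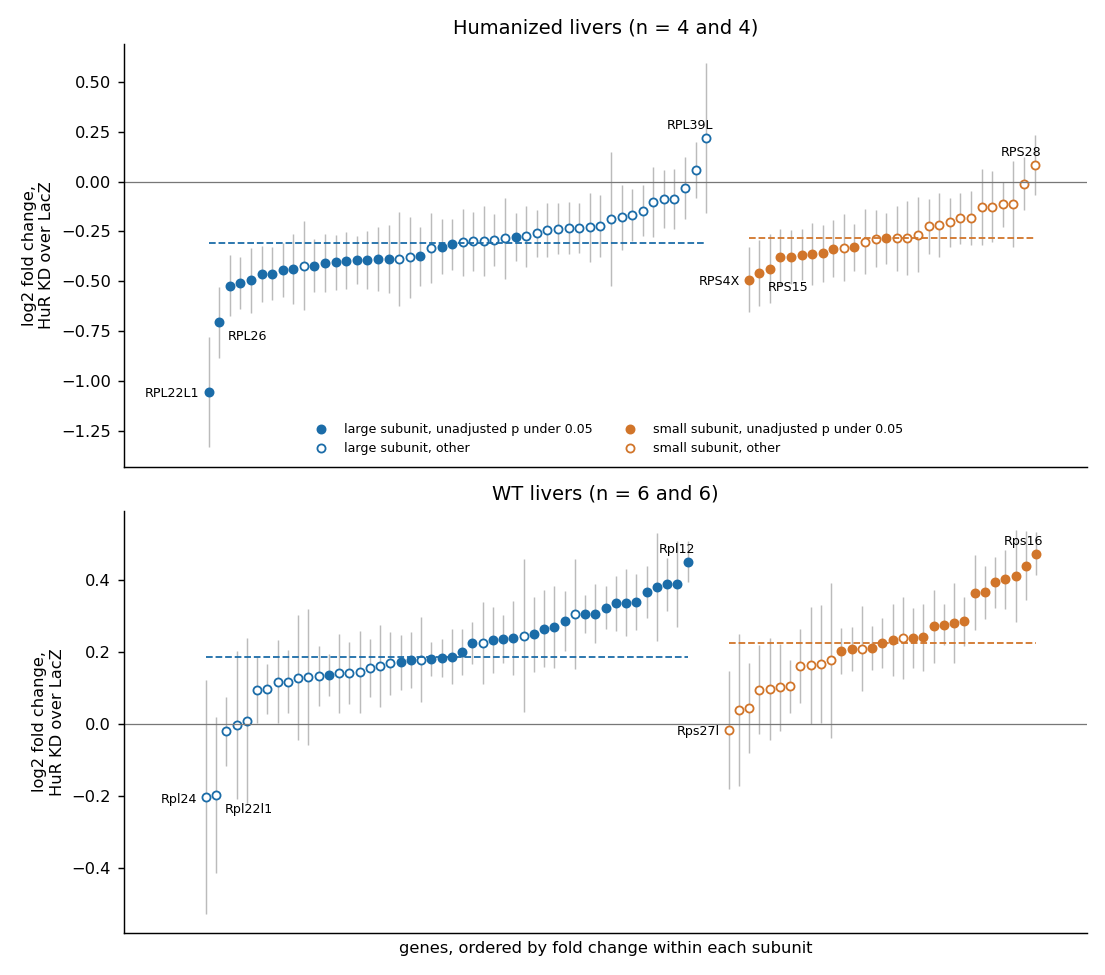
Log2 fold change of HuR KD over LacZ for every ribosomal protein gene tested in humanized (upper) and WT (lower) livers, ordered within each subunit, with bars for the standard error, filled points for unadjusted p under 0.05 and dashed lines for the subunit medians. The medians are -0.31 and -0.28 in humanized livers and 0.19 and 0.23 in WT livers, and the lowest gene is RPL22L1 at -1.05.

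Rpl12, at the base of the stalk, had the smallest p of the mouse genes. It ran from 66.9 to 81.0 TPM (median 72.1) with HuR knockdown and from 48.5 to 55.2 TPM (median 53.8) with LacZ, so the groups were well apart (log2 fold change 0.45 ± 0.06 SE, adjusted p = 0.00283). Rps16, whose tail reaches the tRNA in the P site, ran from 115 to 148 TPM (median 128) and from 89.6 to 94.4 TPM (median 93.5) (0.47 ± 0.06, adjusted p = 0.00297). Rps21, a late-joining protein of the small subunit, ran from 227 to 291 TPM (median 256) and from 184 to 212 TPM (median 196) (0.39 ± 0.07, adjusted p = 0.0312). The means of Rpl12, Rps16 and Rps21 were 137.6%, 139.6% and 131.9% of their LacZ means, and HuR KD 3 was the lowest knockdown liver in all 3.

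Rpl36a, near the tRNA exit site, had medians of 95.4 and 76.2 TPM (0.31 ± 0.05, adjusted p = 0.0268), and Rpl7a medians of 84.5 and 66.2 TPM (0.32 ± 0.06, adjusted p = 0.0361). Rpl28 (0.39 ± 0.07), Rpl3, which lies close to the peptidyl transferase centre (0.37 ± 0.07), Rpsa (0.37 ± 0.07), Rps6 (0.40 ± 0.08) and Rps14 (0.28 ± 0.06) had adjusted p values of 0.0376, 0.0391, 0.0453, 0.0454 and 0.046. Of these 7 genes only Rpl28 had overlapping groups, through LacZ 2 at 76.5 TPM.

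Rplp1 (1010 TPM) and Rpl4 (545 TPM) had the highest TPM of the large subunit in WT LacZ livers, and Rps15 (480 TPM) that of the small subunit. These 3 genes did not pass with all livers. Rplp1 and Rps15 passed without LacZ 2 (unadjusted p = 0.00654 and 0.017) and with voom on recovered reads (0.0175 and 0.0269), and Rplp1 also without HuR KD 3 (0.0367). Rpl4 passed without HuR KD 6 (0.0007) and with median-of-ratios factors (0.0434). Rplp1 ran from 988 to 1773 TPM (median 1158) with knockdown and from 878 to 1465 TPM (median 919) with LacZ, its highest values being those of HuR KD 6 and LacZ 2. Of the other stalk proteins, Rplp0 rose (453 ± 51.2 and 371 ± 33.4 TPM, unadjusted p = 0.00422) and so did Rplp2 (133 ± 39.8 and 99.8 ± 13.9 TPM, unadjusted p = 0.0258), with HuR KD 6 at 214 TPM of Rplp2. For Rplp2 the unadjusted p was 0.0516 without LacZ 1, 0.0518 without LacZ 6 and 0.0573 with median-of-ratios factors.

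The 5 mouse genes with a log2 fold change below 0 were Rpl24, Rpl22l1, Rpl11, Rps27l and Rpl39, and none of them passed the threshold. In each of them HuR KD 6 was the lowest knockdown liver. Rpl24, a bridge between the subunits, was at 8.21 TPM in that liver and at 29.4 to 42.5 TPM in the other 5. Rpl39, a small protein that lines the exit tunnel, was at 47.8 TPM there and at 118 to 135 TPM in the others. Without HuR KD 6 the log2 fold changes of Rpl24, Rpl22l1, Rpl11, Rps27l and Rpl39 were 0.14, 0.03, 0.07, 0.15 and 0.22, all above 0, and of the 5 only Rpl39 passed (unadjusted p = 0.00139). HuR KD 6 could also lie high, as for Rps28 with 160 TPM against 84.4 to 104 TPM in the other knockdown livers.

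Levels in HuR KD 6 also differed with the base composition of the transcripts. Its 79 levels, less the mean of the other HuR KD livers, had an SD of 0.56 on the log2 scale, beside 0.12 to 0.14 for each other knockdown liver. Across the genes the Spearman correlation of this deviation with the GC content of the longest coding transcript (40.6% to 62.4%) was 0.34, while it was between -0.40 and -0.11 in HuR KD 1 to 5. The longest transcript, of 5179 bases for Rps15a, need not be the one expressed in these livers, which was not examined. LacZ 2, the library with 1423985 reads, had an SD of 0.31 and a correlation of 0.41, and the other LacZ livers had correlations of -0.405 to -0.098. The reference mean of HuR KD 1 to 5 includes HuR KD 6, and that of each other LacZ liver includes LacZ 2. The negative correlations can therefore mirror HuR KD 6 and LacZ 2 and are no independent comparison. Over all 15069 mouse genes with a transcript the correlations of HuR KD 6 and LacZ 2 were 0.41 and 0.30. These correlations describe 79 genes that share the same libraries and carry no test, and the part of base composition in any fold change was not tested.

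**Figure D3:**
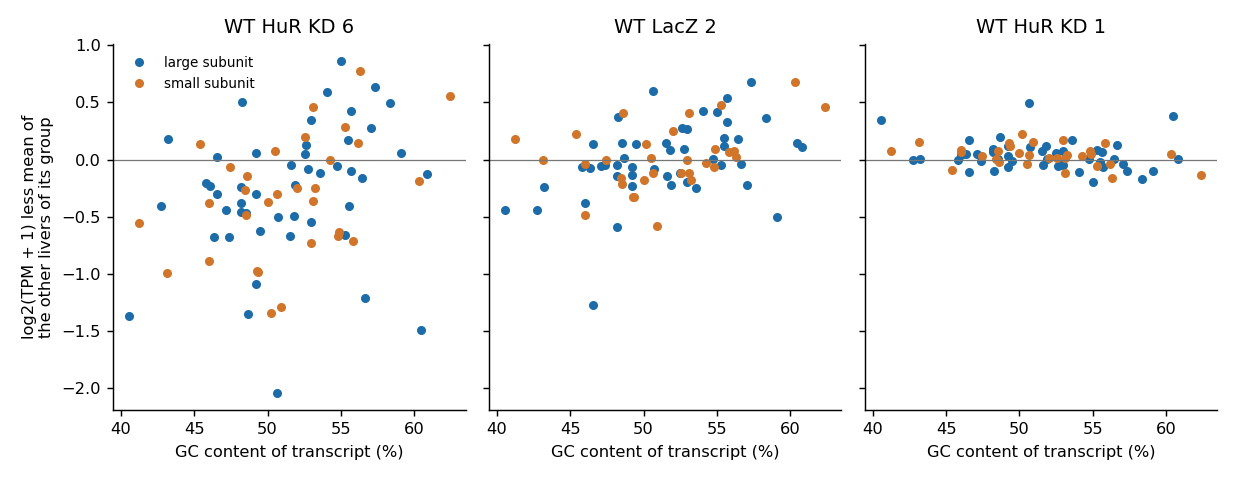
Deviation of each mouse ribosomal protein gene from the mean of the other livers of its group, on the log2(TPM + 1) scale, against the GC content of its longest coding transcript in percent, for WT HuR KD 6, LacZ 2 and, for comparison, HuR KD 1. The points of HuR KD 6 (Spearman 0.34) and LacZ 2 (0.41) are broadly scattered and rise with GC content, whereas those of HuR KD 1 (-0.25) stay close to 0. The reference mean of HuR KD 1 includes HuR KD 6.

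Pyrimidine runs were looked for at the start sites of the mouse genes. RefSeq start sites on GRCm38.p6 were available for 62 of the 82 mouse genes. In a window of 30 bases, 10 before the start and 20 from it onwards, a run of 8 or more pyrimidines (C or T, on the strand of the gene) was present in 24 of them, or 38.7%. Of 16615 protein-coding genes with a start site 13.1% held such a run, and of 69 mitochondrial ribosomal protein genes 8.7%. The windows of the genes called after adjustment in WT livers are printed with the run in capitals, since these genes carry the clearest increase.
Rpl12 (chr2:32961702-32961731, plus strand): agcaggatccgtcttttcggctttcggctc
Rps16 (chr7:28350679-28350708, plus strand): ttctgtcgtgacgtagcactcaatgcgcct
Rpl36a (chrX:134585644-134585673, plus strand): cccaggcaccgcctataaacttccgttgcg
Rps21 (chr2:180257369-180257398, plus strand): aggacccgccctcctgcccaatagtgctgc
Rpl7a (chr2:26910797-26910826, plus strand): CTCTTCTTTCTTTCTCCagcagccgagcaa
Rpl28 (chr7:4792955-4792984, plus strand): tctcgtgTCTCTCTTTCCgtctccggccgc
Rpsa (chr9:120127756-120127785, plus strand): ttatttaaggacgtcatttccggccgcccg
Rps6 (chr4:86857348-86857377, minus strand): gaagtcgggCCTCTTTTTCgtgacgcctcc
Rpl3 and Rps14 are not shown. Rpl7a, Rpl28 and Rps6 held a run of 17, 11 and 10 pyrimidines, and the other 5 held none of 8 or more in this window. Annotated starts can lie several bases from the first base of the mRNA, and a window without a run says only that these letters are not in it.

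Rpl22l1 and Rps27l, near copies whose ratios to their main genes are described further on, are shown beside those genes.
Rpl22 (chr4:152325716-152325745, plus strand): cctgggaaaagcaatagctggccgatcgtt
Rpl22l1 (chr3:28805498-28805527, plus strand): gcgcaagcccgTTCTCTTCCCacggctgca
Rps27 (chr3:90213629-90213658, minus strand): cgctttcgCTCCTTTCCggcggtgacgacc
Rps27l (chr9:66946076-66946105, plus strand): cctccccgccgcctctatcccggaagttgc
A run was present for Rpl22l1 and Rps27 and not for their partners. In WT livers the 24 tested genes with a run had a median log2 fold change of 0.18, with 12 that rose. The 35 tested genes without one had a median of 0.23, with 22 that rose. Of all mouse genes tested 9.09% rose, and their median was 0.03. The difference between the medians with and without a run was not tested. The genes without a start site used here are in neither group.

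The effects of HuR knockdown in the humanized and WT livers were then set against each other in one limma model over 8202 pairs of genes with the same symbol. Of 82 symbols of the family present in both tables, 73 were tested in both. Their human and mouse genes differed in direction in 67 cases, all lower in humanized and higher in WT livers, while 5 were lower in both and 1, RPS28, was higher in both. In 18 cases both fold changes passed the unadjusted threshold, and these 18 were opposite in direction. Neither the 67 nor the 18 was counted over all 8202 pairs, so how unusual they are is not known. The medians over all genes also lay below 0 in humanized (-0.05) and above 0 in WT livers (0.03). The difference of the effects passed an adjusted p of 0.05 for 28 of the 73, 18 of 46 large and 10 of 27 small subunit genes, beside 5.01% of all pairs, and all 28 differences were below 0. The median difference was -0.52 on the log2 scale, with a range from -0.97 to -0.09, beside -0.09 for all pairs.

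The largest difference belonged to RPL12, which fell by 0.52 in humanized and rose by 0.45 in WT livers (difference -0.97 ± 0.14 SE, adjusted p = 0.000525). RPL26 differed by -0.90 ± 0.17 (adjusted p = 0.00272), RPS16 by -0.81 ± 0.16 (adjusted p = 0.00427), RPS6 by -0.78 ± 0.15 (adjusted p = 0.004) and RPL3 by -0.76 ± 0.13 (adjusted p = 0.00202). The genes with the smallest human p differed as well, with -0.65 for RPL32 (adjusted p = 0.0322), -0.73 for RPL9 (adjusted p = 0.0173) and -0.73 for RPS4X (adjusted p = 0.0175). RPL22L1, with the largest human decrease, differed by -0.86 ± 0.35 and did not pass (adjusted p = 0.17). With TPM rescaled to nuclear protein-coding genes 17 of the 73 differences passed, and without WT HuR KD 6 45 did. Leaving out humanized HuR KD 1 left 17, and leaving out humanized HuR KD 2 or LacZ 4, or WT HuR KD 1, HuR KD 4, LacZ 1 or LacZ 3, left 18. The matching counts over all pairs in these refits are not given here.

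**Figure D4:**
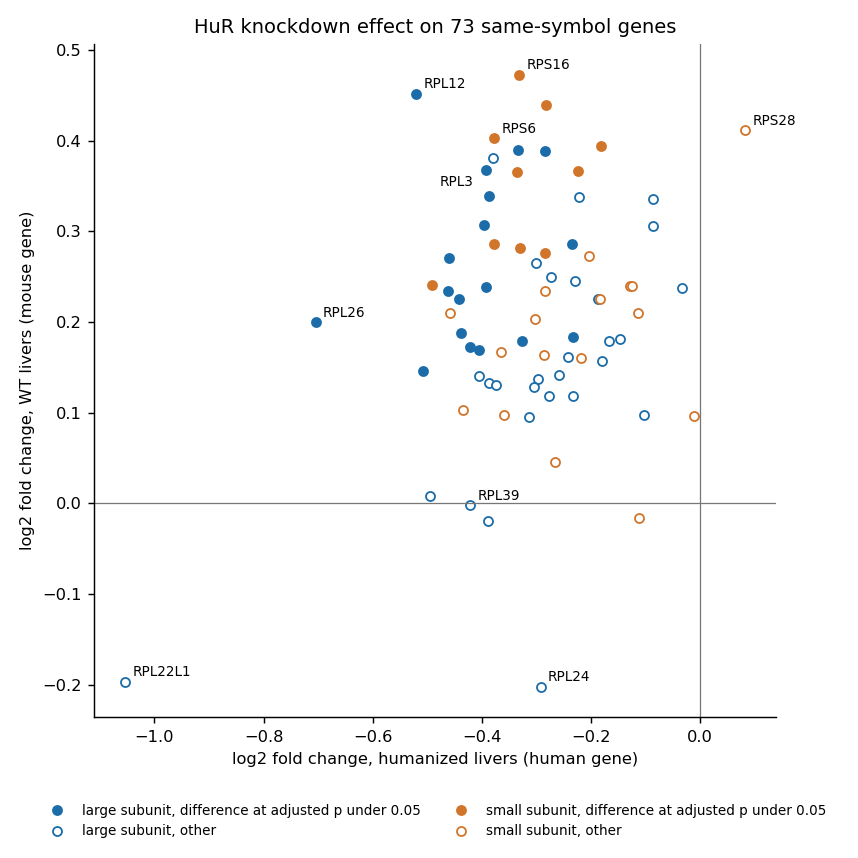
Log2 fold change of HuR KD over LacZ in humanized livers (human gene, horizontal axis) against that in WT livers (mouse gene, vertical axis) for the 73 genes of the family tested in both, with filled points where the difference of the effects passed an adjusted p of 0.05. Of the 73 points, 67 lie at the upper left, lower in humanized and higher in WT livers, and RPS28 alone lies in the upper right.

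Pairs of paralogues, not all of which need be exchangeable in the ribosome, were compared within each liver. The measure was the log2 ratio of (TPM + 1) of the paralogue over that of the main gene. This removes any scale factor of the library except for the pseudocount. For each set of livers 5 ratios could be formed, with p values adjusted over the 5. RPL22L1 encodes a near copy of RPL22, a large subunit protein that a cell can do without. Human RPL22L1 was at 7.5, 10.9, 9.05 and 12.9 TPM in HuR KD livers and at 25.2, 11.8, 25.4 and 28.7 TPM in LacZ livers, so LacZ 2 resembled the knockdown livers (log2 fold change -1.05 ± 0.28 SE, unadjusted p = 0.00396, adjusted p = 0.172 in limma). Human RPL22 was at 11.8, 13.6, 13.5 and 16.5 TPM and at 13.9, 16.9, 11.6 and 14.5 TPM, with no separation. Their log2 ratio was -0.59, -0.30, -0.53 and -0.33 with knockdown and 0.82, -0.49, 1.06 and 0.94 with LacZ. The means differed by -1.02 ± 0.37 SE (exact permutation p = 0.0857, adjusted p = 0.143), and without LacZ 2 by -1.38 (exact permutation p = 0.0286). In 3 of 4 control livers the copy therefore exceeded RPL22, and in the knockdown livers it was below it.

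The mouse ratio of Rpl22l1 to Rpl22 was below 0 in every liver. It ran from -3.14 to -1.62 (median -1.73) with HuR knockdown and from -1.70 to -1.27 (median -1.51) with LacZ, a difference of -0.43 ± 0.25 (exact permutation p = 0.0238, adjusted p = 0.0379). Rpl22 itself rose from 78.8 ± 7.24 to 92.8 ± 4.73 TPM with groups that did not overlap (unadjusted p = 0.0036 in limma), while Rpl22l1 had medians of 27.1 and 28.3 TPM. HuR KD 6, with 10.01 TPM of Rpl22l1, stood far below the rest, and without it the difference was -0.20 (exact permutation p = 0.0519). Without LacZ 1, 3, 4 or 5 the difference was -0.44, -0.42, -0.41 and -0.38, with exact permutation p values of 0.0649, 0.0823, 0.0823 and 0.0866.

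Human RPL26L1, a near copy of RPL26, did not follow it. RPL26L1 was at 21.5, 15.8, 16.3 and 17.9 TPM with HuR knockdown and at 17.9, 18.7, 15.3 and 16.3 TPM with LacZ. The mean ratio was -1.80 with LacZ and -1.04 with knockdown, a difference of 0.76 ± 0.25 with groups that did not overlap (exact permutation p = 0.0286, adjusted p = 0.0714). HuR KD 1 lay farthest out with a ratio of -0.38, and without it the difference was 0.54. The ratio of RPL7L1 to RPL7 was higher by 0.34 ± 0.14 (exact permutation p = 0.0286, adjusted p = 0.0714), and without any one LacZ liver the exact permutation p was 0.0857 to 0.143. RPL39L over RPL39 differed by 0.64 ± 0.47 and RPS27L over RPS27 by 0.01 ± 0.27, and neither passed (exact permutation p = 0.229 and 0.971).

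In WT livers the paralogue lost ground to the main gene in 4 of 5 pairs. On their own, Rpl22l1, Rps27l, Rpl36al and Rpl7l1 did not pass the unadjusted threshold in limma (log2 fold changes -0.20, -0.02, -0.32 and 0.10). Their main genes Rpl22, Rps27, Rpl36a and Rpl7 had 0.24, 0.24, 0.31 and 0.22, and only Rps27 did not pass. Rps27l, a p53 target, fell against Rps27 by 0.26 ± 0.09 on the log2 scale (exact permutation p = 0.013, adjusted p = 0.0325), Rpl36al against Rpl36a by 0.63 ± 0.23 (exact permutation p = 0.00216, adjusted p = 0.0108), and Rpl7l1 against Rpl7 by 0.13 ± 0.05 (exact permutation p = 0.0303, adjusted p = 0.0379). The Rpl7l1 difference missed the threshold without any one of HuR KD 3, 4 or 6 or LacZ 1 or 5 (exact permutation p = 0.0519 to 0.0584). Rps4l over Rps4x differed by -0.04 ± 0.20 (exact permutation p = 0.823). The Rpl36al ratio had no overlap between groups, from -3.72 to -2.36 with knockdown and from -2.33 to -1.69 with LacZ, and without HuR KD 6 the difference was still -0.42.

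**Figure D5:**
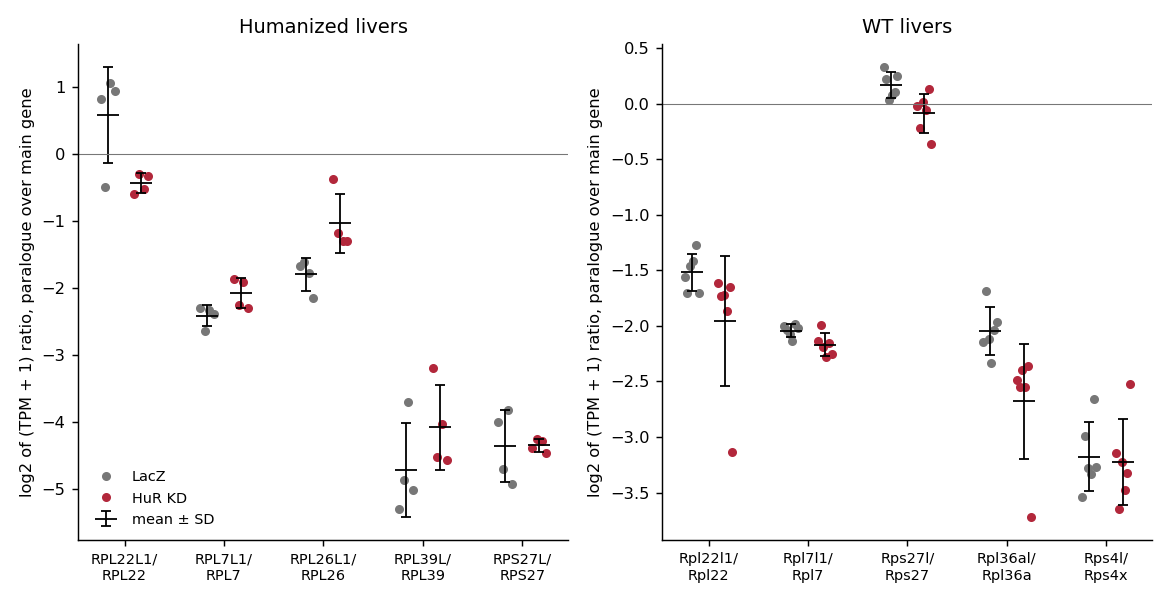
Log2 ratio of (TPM + 1) of the paralogue over the main gene in every liver of the humanized (left) and WT (right) sets, with LacZ in grey, HuR KD in red, and the mean ± SD as a bar. RPL22L1 over RPL22 is above 0 in 3 of 4 humanized LacZ livers and below 0 in all 4 HuR KD livers, and WT HuR KD 6 is the lowest point for Rpl22l1 and Rpl36al.

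Other genes of the translation machinery were described from fixed lists beside the family. Of 73 mitochondrial ribosomal proteins tested in humanized livers, which serve translation inside mitochondria, 4 fell and 2 rose, with a median log2 fold change of -0.02, beside 7.87% and 3.6% of all human genes. In WT livers 16 of 77 rose and 0 fell, with a median of 0.10, beside 9.09% and 6.94% of all mouse genes. Of the elongation factors and their partners, 1 of 7 human genes tested fell, EEF1A1, which delivers aminoacyl-tRNA (704 and 559 TPM, unadjusted p = 0.034), and 0 rose. All 10 mouse genes of that list rose at the unadjusted threshold, among them Eef1a1 (2799 and 3317 TPM, log2 fold change 0.24) and Pabpc1, the poly(A)-binding protein (39.6 and 56.5 TPM, 0.49), and 0 of them passed after adjustment. Of the ribosomal proteins outside the name rule 1 of 4 human genes fell, and 2 of 5 mouse genes rose. RACK1, a scaffold on the small subunit, fell in humanized livers (97.2 and 71.8 TPM, unadjusted p = 0.009) and rose in WT livers (134 and 160 TPM, unadjusted p = 0.012).

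Of 14 genes that control TOP mRNAs and mTORC1 signalling, 2 rose and 2 fell in WT livers, and 0 passed after adjustment. Of all mouse genes 9.09% rose and 6.94% fell. In humanized livers 1 of 14 rose, RPS6KB2, and 0 fell, beside 3.6% and 7.87% of all human genes. In WT livers Rptor and Mlst8, subunits of mTORC1, rose (11.2 and 14.1 TPM, 4.40 and 5.59 TPM), while Deptor, an inhibitor of mTOR, and Rheb, its activator, fell (61.0 and 50.6 TPM, 12.6 and 9.80 TPM). Of 10 mouse p53 response genes 1 fell, Trp53inp1, and 0 rose. In lists this small such counts are not read as a change of the list.

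Markers of several other liver cells were lower with the knockdown in WT mice, and most such markers were nearly absent from the human table. In WT livers 3 of 7 Kupffer cell and macrophage markers, 2 of 5 T and NK cell markers and 2 of 5 stellate cell markers fell, and none of these rose, beside 6.94% of all mouse genes that fell and 9.09% that rose. Of 5 endothelial markers 1, Stab2, rose (37.4 and 42.5 TPM, unadjusted p = 0.0459) and 0 fell, while 0 of 3 neutrophil, 0 of 1 B cell and 0 of 1 cholangiocyte markers passed. The macrophage markers summed to 119 to 198 TPM with knockdown and 165 to 231 TPM with LacZ, the T and NK cell markers to 7.90 to 15.9 and 10.3 to 25.3 TPM, and the stellate cell markers to 78.0 to 121 and 99.7 to 130 TPM. None of these markers was at 0 in all WT livers. Hepatocyte markers did not pass in either set, 0 of 7 in WT and 0 of 8 in humanized livers. In humanized livers the cholangiocyte markers summed to 4.71 to 26.8 TPM with knockdown and 10.1 to 34.9 TPM with LacZ, with EPCAM lower (unadjusted p = 0.047), and the macrophage markers to at most 3.59 TPM. Their part in the change of the ribosomal protein genes was not tested.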

How the data were processed

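The deposited values are TPM, in 1 table per set, which the authors made by adapter trimming (cutadapt), HISAT2 alignment and counting per gene (featureCounts). Reads of humanized livers were aligned against both genomes at once. The formula of the TPM is not given in the sources used here. Samples were mapped to groups by the labels, and 0 columns were left out.

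Members and lists were chosen with earlier results of these data known. Each table was fitted apart with limma 3.58.1 in R 4.3.3 (lmFit, eBayes with trend) on log2(TPM + 1) for genes with a mean of at least 1 TPM, adjusted by Benjamini-Hochberg over all genes. The fold change on this scale understates that of low genes. The joint fit had 1 mean per group. Single values and ratios were compared by two-sided exact permutation, which cannot go below 0.0286 for 4 against 4 or 0.00216 for 6 against 6 livers. The rule for named genes took ELAVL1, the 4 genes of each subunit with the smallest p and the 2 of each with the highest control TPM. It also took both genes of each paralogue pair, up to 5 genes against the median's direction, the P proteins and RPSA. Counterparts of all these in the other set were included. Genes outside this rule (RPL5, RPS14, RPS25, RPS18, RPS9 and list members) were named after their values were seen. Some genes that meet the rule are not reported here.

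Reads were recovered as whole numbers behind the TPM steps for 18702 human and 25110 mouse genes (100% of those above 0 in at least 4 libraries, tolerance 0.004), and voom on them is an alternative. The fits and the recovery were tested on simulated data. GC content came from GENCODE M21 transcripts and start sites from RefSeq (GRCm38.p6). Human sequences were not used here.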

Additional observations from a re-analysis of the deposited data

Results flagged for a closer look

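Single livers stood apart from the rest of their group by Dixon's test, which flags about 1 in 20 groups by chance. Of 184 groups tested, 25 held such a liver, so some of those listed can be due to chance. In humanized livers these were HuR KD 2 for RPL24 (59.2 TPM) and HuR KD 1 for the RPL26L1 to RPL26 log2 ratio (-0.38). LacZ 4 stood apart for RPL3 (110 TPM) and RPL7 (148 TPM), and LacZ 2 for the RPL22L1 to RPL22 log2 ratio (-0.49).

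In WT livers HuR KD 4 had the highest share of TPM on the family (1.45%). HuR KD 6 was low for Rpl11 (58.1 TPM), Rpl22l1 (10.01 TPM), Rpl36al (6.39 TPM), Rpl39 (47.8 TPM), Rps27 (213 TPM) and Rps27l (166 TPM). It was high for Rplp0 (551 TPM), Rplp2 (214 TPM), Rps15 (757 TPM) and Rps28 (160 TPM). Its log2 ratios of Rpl22l1 to Rpl22 (-3.14) and of Rpl36al to Rpl36a (-3.72) were also flagged. WT LacZ 2, the shallowest library, was low for Rpl22l1 (20.5 TPM), Rpl4 (500.1 TPM) and Rpl9 (53.4 TPM). It was high for Rpl24 (47.7 TPM), Rpl32 (442 TPM), Rplp1 (1465 TPM) and Rps15 (622 TPM).

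The knockdown effects of several named genes differed between humanized and WT livers in the joint limma fit at an adjusted p under 0.05. The differences, humanized less WT on the log2 scale, were -0.97 for RPL12, -0.90 for RPL26, -0.81 for RPS16, -0.78 for RPS6, -0.76 for RPL3, -0.73 for RPL9, -0.73 for RPS4X and -0.72 for RPS12. They were -0.67 for RPL28, -0.67 for RPL7, -0.65 for RPL32, -0.59 for RPSA, -0.58 for RPL4, -0.58 for RPS21 and -0.52 for RPLP0.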

How the results depend on the processing

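Under every alternative run, pseudocount, filter, scaling, trend, voom and each liver left out, the median log2 fold change of the family stayed below 0 in humanized livers and above 0 in WT livers. Leaving out 1 liver gave medians of -0.36 to -0.25 and of 0.19 to 0.25.

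In humanized livers 16 genes fell with TPM rescaled to nuclear protein-coding genes, and 15 to 38 with 1 liver left out. After adjustment 1 passed without HuR KD 4 and LacZ 2 together (chosen after seeing the data), and 0 to 1 with 1 liver left out. Over all human genes 0 to 163 passed with 1 liver left out. In WT livers the adjusted count was 2 without the trend, 5 without the filter, 20 with voom (chosen after seeing the data) and 2 to 32 with 1 liver left out. Over all mouse genes 30 to 372 passed with 1 liver left out. The differences between the sets numbered 17 with protein-coding scaling and 17 to 45 with 1 liver left out. Other counts over all genes or all pairs in these refits are not given here, so no share stands beside them.

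The replicate numbers did not pair the livers: deviations of same-numbered livers correlated between -0.25 and 0.14 in humanized and between -0.14 and 0.21 in WT livers. With the replicate block 28 human genes fell and 38 mouse genes rose, and 0 passed after adjustment. The counts over all genes with this block are not given here, so no share stands beside them. Sign-flip p under this block was 0.125 for the RPL7L1 ratio, which was 0.34, and for the RPL26L1 ratio, which was 0.76, in humanized livers, and 0.125 is the smallest value that 4 pairs allow, so it says nothing about these ratios. In WT livers it was 0.0625 for Rpl7l1 (-0.13) and 0.09375 for Rps27l (-0.26), with 0.03125 the smallest possible.

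Signs of genes that did not pass turned in humanized livers for RPL22 (0.039 with median-of-ratios factors, 0.055 with protein-coding scaling, 0.027 with voom), for RPLP1 (0.0041 with protein-coding scaling), and in WT livers with voom for Rps27l (0.00066) and Rpl24 (0.0301) and for Rpl39 (0.0399 with voom, 0.00805 with protein-coding scaling). With 1 liver left out, humanized values ran from -0.12 to 0.0488 for RPL22, -0.17 to 0.0056 for RPLP1, -0.0289 to 0.11 for RPL26L1, -0.0261 to 0.56 for RPL39L, -0.013 to 0.16 for RPS28, -0.23 to 0.00295 for RPS27 and -0.30 to 0.0418 for RPS27L. WT values ran from -0.0721 to 0.22 for Rpl39, -0.0832 to 0.15 for Rps27l, -0.31 to 0.14 for Rpl24, -0.27 to 0.0302 for Rpl22l1 and -0.0551 to 0.0708 for Rpl11. The ratios ran, in humanized livers, from -1.38 to -0.86 for RPL22L1, 0.26 to 0.41 for RPL7L1, 0.54 to 0.85 for RPL26L1, 0.35 to 0.98 for RPL39L and -0.17 to 0.20 for RPS27L. In WT livers they ran from -0.50 to -0.20 for Rpl22l1, -0.16 to -0.11 for Rpl7l1, -0.30 to -0.20 for Rps27l, -0.69 to -0.42 for Rpl36al and -0.18 to 0.061 for Rps4l. The causes were not tested.

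Depth limits the low genes: RPL39L rested on 2 to 27 reads per liver, so its fold change and ratio are imprecise.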
